A study of Homo sapiens with 36 samples.

Results

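The cytosolic ribosomal protein genes were the 74 rows of the count table, of 15186 genes in all, whose symbol is RPL or RPS with a number and an optional A or X, or is RPLP0, RPLP1, RPLP2 or RPSA. All 74 passed the filter on low counts, as did 15179 of all genes. The choice of members used symbols alone and no measured value.

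RNA was sequenced from U2OS cells, a human osteosarcoma line, stably transfected with the glucocorticoid receptor isoform GRα. The 5 siRNA conditions carried siRNA against Hic-5 with a non-specific siRNA (siHic5siNS), CHD9 with it (siCHD9siNS), BRM with it (siBRMsiNS), CHD9 and Hic-5 (siCHD9siHic5) or BRM and Hic-5 (siBRMsiHic5), and the control condition carried the non-specific siRNA alone (siNSsiNS). From 48 h after transfection each condition received 100 nM dexamethasone (dex) or ethanol vehicle for 8 h, which gives 12 groups of 3 biological replicates made on different days, 36 libraries in all. The design asks whether depleting Hic-5, a co-regulator of the receptor, alters expression that depends on the remodellers CHD9 and BRM. All groups share the introduced receptor and a transfection, and how many clones the line came from is not stated in the labels. Libraries held 27.4 to 47.2 M gene counts.

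Each cytosolic ribosome is built from a small subunit, whose proteins carry the RPS names, and a large subunit, whose proteins carry the RPL names, together with ribosomal RNA. Growing cells need nearly all of these proteins in equal numbers, and their mRNAs are among the most abundant in the cell. Most of these mRNAs begin with a 5′ terminal oligopyrimidine (TOP) tract, a C followed by a run of C and T, through which mTOR signalling controls their translation. Proteins that are not built into ribosomes are degraded, and free RPL5 and RPL11, bound to 5S ribosomal RNA, inhibit MDM2 and so stabilise p53.

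The start of the transcript is the sequence feature that the members share and that the choice by symbol did not use. RefSeq promoter windows (build GRCh38.p14) matched 60 of the 74 members, or 81.1%, and 77.6% of the other tested genes. A tract of at least 5 bases beginning with C at the annotated first base was present in 44 of 60 members (73.3%), against 789 of 11727 other genes (6.73%). With the tract allowed to begin within 5 bases either side of that base, 51 of 60 members (85%) and 29% of other genes had one. Read on the opposite strand from the same base, the same rule matched 0 of 60 members and 2.46% of other genes. The windows below run from 10 bases before the start to 20 bases from it and were picked from members with calls between siRNA conditions to show starts with and without the tract. Capitals mark the tract.
RPL34: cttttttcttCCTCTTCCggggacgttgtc
RPL35A: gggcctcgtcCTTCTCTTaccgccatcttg
RPL11: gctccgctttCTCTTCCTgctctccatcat
RPS26: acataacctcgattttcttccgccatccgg
RPL27: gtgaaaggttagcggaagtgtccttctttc
All 5 lie on the plus strand, RPL34 at chr4:108620566-108620595, RPL35A at chr3:197950180-197950209, RPL11 at chr1:23691796-23691825, RPS26 at chr12:56041908-56041937 and RPL27 at chr17:42998409-42998438. RPL34 and RPL11 each have another annotated start with no tract, and the annotated starts of RPS26 and RPL27 had none, nor had those of RPL4 and RPL32. Over whole windows of 300 bases, on both strands, CCGGAAG, a core bound by ETS factors, occurred in 35% of members and 20.3% of other genes. AAGATGGC, a core bound by YY1, occurred in 10% and 5.81%, and TATAAA in 8.33% and 9.36%.

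The targeted transcripts were checked first. Under vehicle, TGFB1I1, which encodes Hic-5, had 5.27, 11.2 and 4.75 CPM (counts scaled to the library total with upper-quartile factors) in siHic5siNS libraries, against 27.9, 29.4 and 28.1 in siNSsiNS libraries. SMARCA2, which encodes BRM, had 7.41, 9.57 and 9.30 CPM in siBRMsiNS libraries, against 27.9, 27.2 and 35.8 in siNSsiNS libraries. CHD9 had 59.5, 51.5 and 69.4 CPM in siCHD9siNS libraries, against 96.6, 78.1 and 91.1 in siNSsiNS libraries. With dex it had 89.2, 58.2 and 83.7 CPM in siCHD9siNS libraries, against 97.4, 91.6 and 81.5 in siNSsiNS libraries. The groups overlapped there, so a lower CHD9 transcript was not clear with dex. Under vehicle the siBRMsiHic5 libraries, which carried no CHD9 siRNA, had 42.0, 51.6 and 42.1 CPM of CHD9. The siHic5siNS vehicle libraries, also without CHD9 siRNA, had 78.0, 55.7 and 70.7 CPM, which overlapped the siCHD9siNS vehicle values. In the libraries labelled siCHD9siHic5 the CHD9 transcript went against the label, at 143, 110 and 116 CPM, and was higher by 0.47 (log2; SE 0.18) than in siNSsiNS libraries (adjusted p = 0.029, edgeR quasi-likelihood test with Benjamini-Hochberg adjustment over all tested genes). Of 10 listed bone and mesenchymal markers 8 were measured. VIM, SPARC and COL1A1 were between 991 and 3511 CPM in every library, RUNX2 between 13 and 63.7 and ALPL between 3.60 and 57.5, while EPCAM and CDH1 stayed under 5 CPM. The share of counts on RNA28S5, a ribosomal RNA gene, ran from 0.324 to 7.51%, and was above 3% in siHic5siNS replicate 3, in libraries with BRM siRNA of replicates 2 and 3 other than siBRMsiNS dex replicate 2, and in siNSsiNS vehicle replicate 3. Of the lists of markers of other cell types, 5 epithelial genes summed to 216 to 840 CPM, mostly on KRT8 and KRT18, 3 endothelial genes to 1.09 to 13.6 CPM, and 0 of 6 blood genes were in the table. Under vehicle 2 epithelial genes fell and 1 rose in siHic5siNS, and 2 endothelial genes fell in siCHD9siNS, and their part in the members' results was not tested.

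The 74 genes together took 4.70 to 8.73% of all gene counts. Under vehicle the share was 5.20% ± 0.409 in siHic5siNS, 7.92% ± 0.162 in siCHD9siNS, 5.84% ± 1.25 in siBRMsiNS, 6.65% ± 0.375 in siCHD9siHic5, 5.98% ± 0.597 in siBRMsiHic5 and 6.48% ± 0.203 in siNSsiNS libraries (SD, n = 3 each). The siCHD9siNS libraries lay above all siNSsiNS libraries and the siHic5siNS libraries below them, while siBRMsiNS, siCHD9siHic5 and siBRMsiHic5 libraries were not all on one side of the siNSsiNS range. In siBRMsiNS the replicates stood far apart: under vehicle 7.17% in replicate 1, 5.67% in replicate 2 and 4.70% in replicate 3, where RNA28S5 took 0.612, 3.96 and 6.98%. Leaving RNA28S5 out of the totals left the share between 5.02 and 8.79% over all libraries. In the siBRMsiNS vehicle libraries it was then 7.215, 5.899 and 5.047% in replicates 1, 2 and 3, so the replicates still stood far apart. In total RNA counts, fewer transcripts per cell and a larger pool of other transcripts cannot be told apart. Around the group means, 85.3% of the members' variance between libraries lay on 1 axis, so the replicates of a group moved the 74 genes up or down together.

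**Figure D1:**
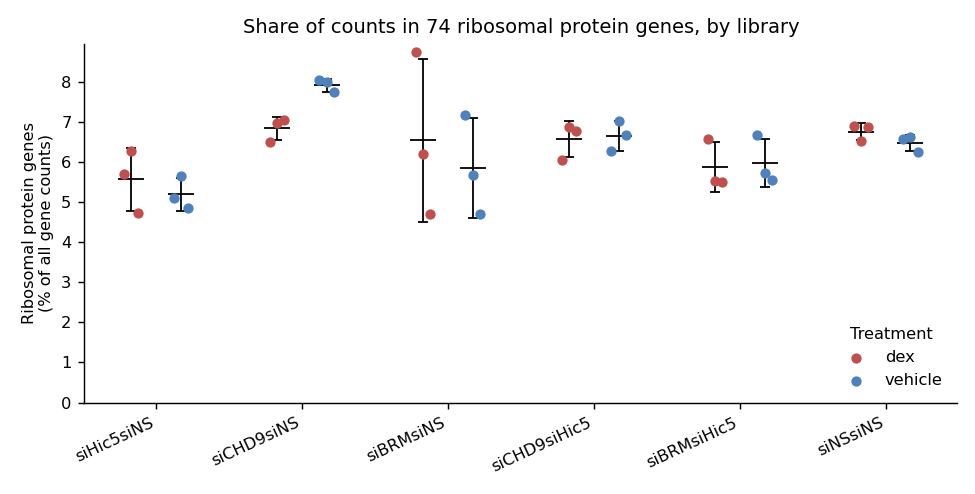
Share of all gene counts in the 74 ribosomal protein genes (%) in each library, by siRNA condition, with dex left of vehicle; points are libraries, horizontal bars the mean and error bars the SD (n = 3). The vehicle libraries of siCHD9siNS are the highest group at 7.73 to 8.04%, and those of siHic5siNS lie at 4.85 to 5.65%.

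CPM is not corrected for length, so the values here show the counts behind each gene and not the order of transcript levels. Mean CPM over the 36 libraries was 2691 for RPLP0, the protein that anchors the ribosomal stalk, 2347 for RPL4, 2211 for RPS2 and 2008 for RPSA. The fewest counts stood behind RPL36A at 7.79, RPL17 at 12.2 and RPS10 at 22.8 CPM, and RPS12 was at 193 CPM. RPL36A, RPL17 and RPS10 are the 3 members for which RefSeq also lists a read-through gene with a neighbour (RPL36A-HNRNPH2, RPL17-C18orf32 and RPS10-NUDT3). Every member has named pseudogenes, 1932 in all, and no source used here says how reads shared with them or with read-through genes were counted. The values of these 3 genes in particular are uncertain.

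With siHic5siNS under vehicle, ribosomal protein genes were mostly lower than with siNSsiNS, and RPL5 was far lower than the rest. Of the 74 members 26 fell and 2 rose, while 46 did not pass the test. Over all tested genes 53.1% passed, 27.2% lower and 26% higher, so a smaller share of the members passed (37.8%), and most of those were lower. The median change over the members was −0.34 (log2), against −0.01 over all genes. The count was 16 without siHic5siNS replicate 1, 16 without replicate 3 and 18 without siNSsiNS replicate 2.

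RPL5 had 292, 162 and 339 CPM in siHic5siNS vehicle libraries, against 1081, 1105 and 1107 CPM in siNSsiNS vehicle libraries. The groups did not overlap, and the siHic5siNS mean was 24.1% of the siNSsiNS mean. The change was −2.05 (SE 0.21, adjusted p = 1.2e-08 by edgeR). RPL27, a large-subunit protein, had 281, 243 and 295 CPM in siHic5siNS libraries and 594, 595 and 616 CPM in siNSsiNS libraries, a change of −1.14 (SE 0.16). RPL4, whose loop lines the tunnel through which the new chain leaves, had 1337, 1364 and 1265 CPM in siHic5siNS libraries and 2591, 2693 and 2682 CPM in siNSsiNS libraries, a change of −1.01 (SE 0.15). For both genes every siHic5siNS library lay below every siNSsiNS library.

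Among the members with assigned roles, RPS3, at the mRNA entry of the small subunit, fell by 0.57, RPS27A, made as a fusion with ubiquitin, fell by 0.60, and RPSA fell by 0.45 with siHic5siNS. RPL23, another protein that binds MDM2, fell by 0.64. RPS15 of the small subunit fell by 0.78. Going the other way, RPL3, which lies next to the peptidyl transferase centre, rose by 0.47, and RPL11, the partner of RPL5 on 5S RNA, rose by 0.61. The mean changes of the 2 partners thus had opposite signs in these libraries. RPL11 had 617.3, 705.5 and 604.5 CPM in siHic5siNS libraries, against 345.7, 361.6 and 557.3 CPM in siNSsiNS libraries. Its rise therefore rested mostly on siNSsiNS replicates 1 and 2 and was small against replicate 3. RPLP0 (−0.19), RPS6 (−0.14), RPS14 (−0.20), RPS19 (−0.36), RPL10 (0.01) and RPL13A (−0.27) did not pass the test.

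With dex the same contrast gave 2 members higher and 16 lower, where 25.2% of all genes were higher and 28.5% lower (53.6% in all), and 5 higher and 14 lower with curves for transcript length and GC content fitted to each library. RPL5 had 290, 169 and 340 CPM in siHic5siNS dex libraries, against 1116, 1106 and 1179 CPM in siNSsiNS dex libraries, a change of −2.09. RPL27 (−1.13) and RPL4 (−0.96) were again the next lowest. The count was 11 without siNSsiNS replicate 1 and 10 without siHic5siNS replicate 3.

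**Figure D2:**
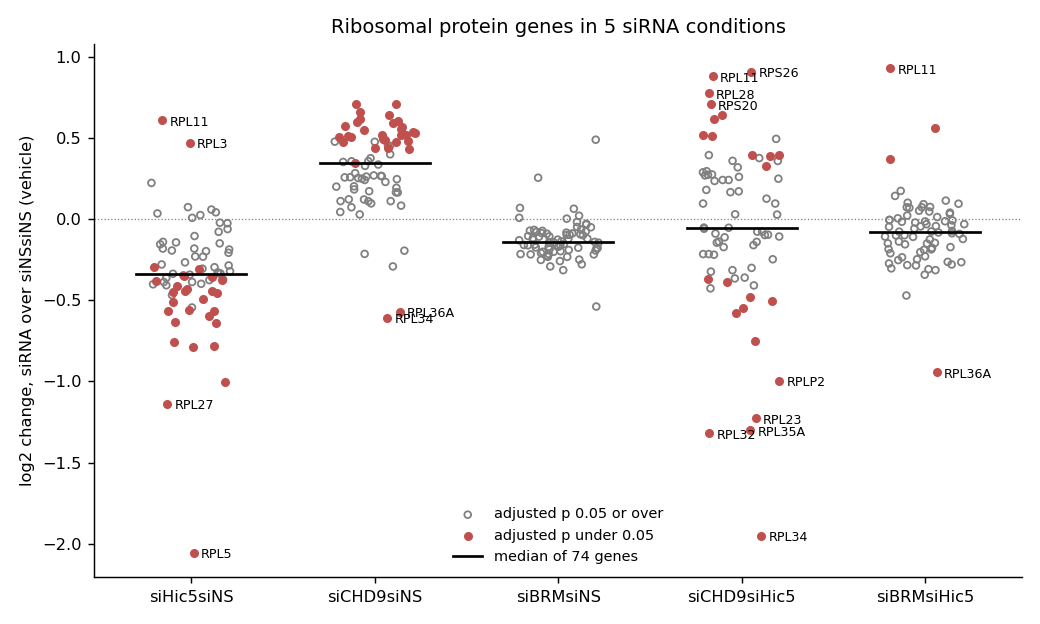
Log2 change of each ribosomal protein gene, siRNA condition over siNSsiNS under vehicle; filled points have adjusted p under 0.05 (edgeR), and black bars mark the median of the 74 genes. RPL5 stands at −2.05 in siHic5siNS and RPL34 at −1.95 in siCHD9siHic5, and the median is lowest in siHic5siNS (−0.34) and highest in siCHD9siNS (0.35).

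With siCHD9siNS under vehicle the members went the other way: 29 rose and 2 fell, with a median of 0.35 against 0.02 over all genes, where 15.8% of all tested genes were higher and 16.5% lower (32.3% in all). RPS26, which contacts the mRNA near its exit from the small subunit, had 389, 353 and 420 CPM in siCHD9siNS libraries and 218, 221 and 272 CPM in siNSsiNS libraries, a change of 0.71 (SE 0.12, adjusted p = 9.4e-05 by edgeR). RPL23A, at the exit of the tunnel, rose by 0.62, RPS20 by 0.66, RPS25 by 0.60, and RPL39, also in the tunnel, by 0.53. RPL11 (0.64), RPL3 (0.47), RPS19 (0.60), RPS6 (0.43), RPS27 (0.49), RPS27A (0.48), RPSA (0.47), RPL10 (0.52), RPL13A (0.52), RPL22 (0.51) and RPL41 (0.34) also rose. RPLP0 (0.36), RPLP1 (0.45), RPS14 (0.37), RPL4 (0.20) and RPL5 (0.04) did not pass the test.

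RPL34, of the large subunit, was among the 5 members with a negative change and was one of the 2 that fell. It had 220, 225 and 203 CPM in siCHD9siNS libraries, against 321, 330 and 336 CPM in siNSsiNS libraries. The groups did not overlap, and the change was −0.61 (SE 0.18, adjusted p = 0.011). RPL36A was the other member that fell, by 0.57, and it did not pass without siNSsiNS replicate 1 (−0.45). With the length and GC curves 10 members rose and 2 fell, where 28.5% of all genes passed. The count lay between 14 and 20 when siNSsiNS replicate 1, 2 or 3 or siCHD9siNS replicate 1 or 2 was left out.

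With dex few members passed: 1 member was higher and 4 were lower in siCHD9siNS than in siNSsiNS, with a median of 0.03, where 7.96% of all genes were higher and 10.7% lower (18.7% in all). RPL34 had 167, 185 and 186 CPM in siCHD9siNS dex libraries and 359, 333 and 355 CPM in siNSsiNS dex libraries, a change of −0.96 (SE 0.18). RPL23 (−0.56), RPL32 (−0.60) and RPL35A (−0.49) were the other 3 that fell, and RPS26 (0.38) was the one that rose. DESeq2 called 3 higher and 4 lower. The count fell to 2 without siNSsiNS replicate 1 or 2 or siCHD9siNS replicate 1 or 3.

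In the libraries labelled siCHD9siHic5, members moved far apart from each other under vehicle: 12 rose and 12 fell, where 23.7% of all genes were higher and 28.9% lower (52.6% in all). The SD of the change between members was 0.51, against 0.34 in siHic5siNS, 0.26 in siCHD9siNS, 0.22 in siBRMsiHic5 and 0.13 in siBRMsiNS, while the median was −0.05. The SD over all genes was not taken, so whether this spread was particular to the members was not tested. With TMM factors 18 rose and 11 fell, beside 3904 and 4084 of 15173 genes. With the length and GC curves 18 rose and 11 fell, beside 4212 and 4119 of 15179 genes. DESeq2 called 19 higher and 11 lower, beside 4072 and 4129 of all genes. The genes named below for the smallest p-values kept their direction and passed under each of these.

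RPL34 had 78.9, 74.4 and 102 CPM in siCHD9siHic5 libraries, against 321, 330 and 336 CPM in siNSsiNS libraries. It stood at 25.9% of the siNSsiNS mean, a change of −1.95 (SE 0.19, adjusted p = 2.7e-09). RPL32 had 208, 237 and 290 CPM in siCHD9siHic5 libraries and 606, 622 and 604 CPM in siNSsiNS libraries, a change of −1.32 (SE 0.19). RPL35A had 196, 182 and 246 CPM in siCHD9siHic5 libraries and 502, 520 and 515 CPM in siNSsiNS libraries, a change of −1.30 (SE 0.17). All 3 belong to the large subunit, and for each the groups did not overlap.

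RPL23 fell by 1.23 in siCHD9siHic5 and RPL10A, of the L1 stalk, fell by 0.55. RPLP2, which forms the acidic stalk with RPLP1, fell by 1.00, whereas RPLP1 was at 0.39 and RPLP0 at 0.18, neither past the test. RPS3 fell by 0.75 and RPL4 by 0.37. RPS26 rose, with 416, 479 and 439 CPM in siCHD9siHic5 libraries against 218, 221 and 272 CPM in siNSsiNS libraries, a change of 0.91 (SE 0.12). RPL11 (0.88), RPL3 (0.64), RPS20 (0.71), RPL28 (0.77), RPL10 (0.62) and RPL13A (0.51) also rose. RPL5 was at 783, 922 and 850 CPM in these libraries, a change of −0.37 that did not pass the test.

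With dex 8 members were higher and 16 lower in siCHD9siHic5 than in siNSsiNS, where 22.3% of all genes were higher and 29.2% lower (51.5% in all), and with TMM factors 11 were higher and 12 lower. RPL34 was again lowest, at 73.2, 68.7 and 101 CPM in siCHD9siHic5 dex libraries against 359, 333 and 355 CPM in siNSsiNS dex libraries, a change of −2.10. RPL32 (−1.41), RPL35A (−1.37), RPL23 (−1.36) and RPL10A (−0.62) fell, while RPS26 (0.82), RPL11 (0.84), RPL3 (0.60), RPS20 (0.64) and RPL28 (0.70) rose.

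**Figure D3:**
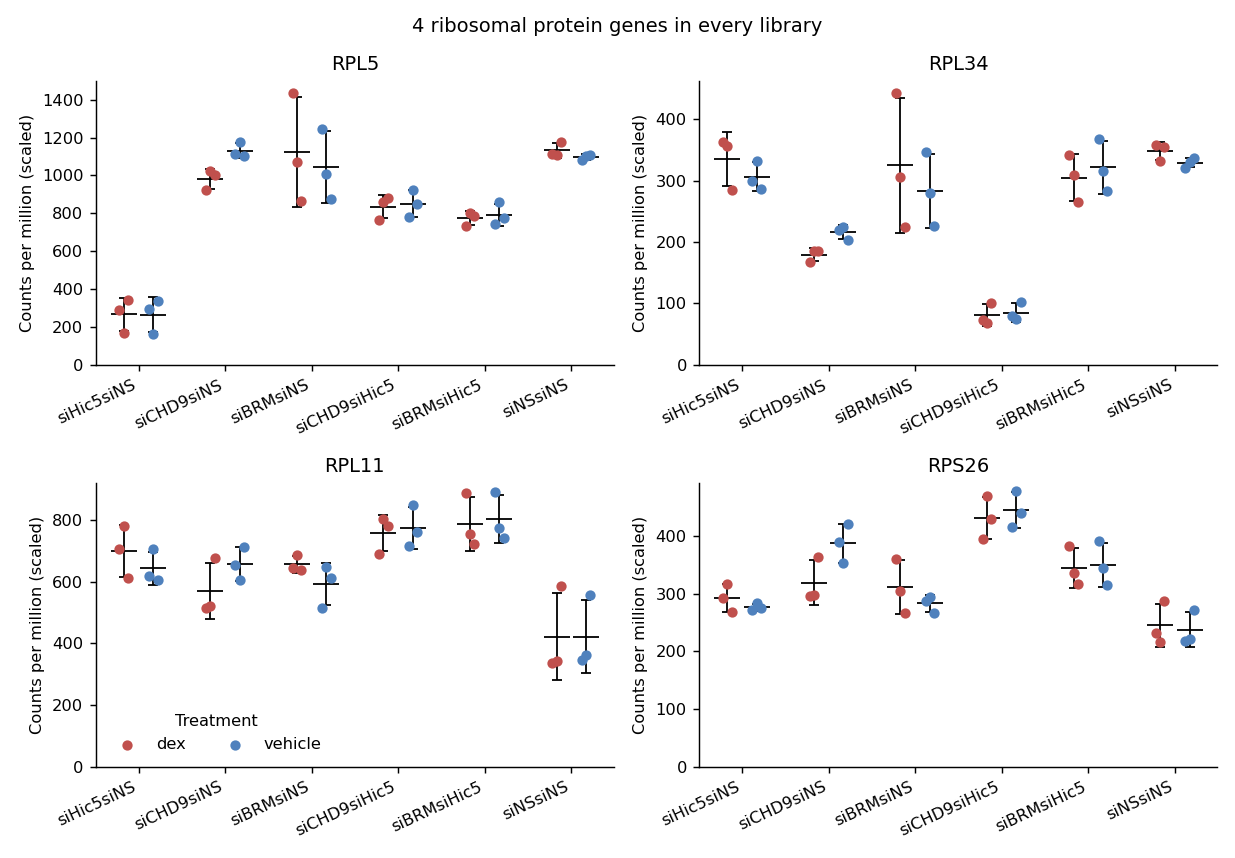
Scaled CPM of RPL5, RPL34, RPL11 and RPS26 in every library, by siRNA condition, with dex left of vehicle; points are libraries, horizontal bars the mean and error bars the SD (n = 3). RPL5 is lowest in siHic5siNS (162 to 340 CPM), RPL34 in siCHD9siHic5 (68.7 to 102 CPM), and RPL11 in siNSsiNS replicates 1 and 2 (336 to 362 CPM).

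Few members passed the test with BRM siRNA. With siBRMsiNS under vehicle 0 of 74 passed by edgeR, where 6.45% of all genes did, 3 had an unadjusted p under 0.05, and DESeq2 called 1. The median was −0.14, beside 0.14 for other genes with transcripts under 1500 bases. With the length and GC curves it was −0.27, with 1 member called and 21 at an unadjusted p under 0.05. In that fit 587 of 15179 genes were called higher and 426 lower. How many of all genes had an unadjusted p under 0.05 was not counted in any contrast, so such counts of members have no background. RPL11 had 515, 648 and 610 CPM in siBRMsiNS libraries and 346, 362 and 557 CPM in siNSsiNS libraries, a change of 0.49 that did not pass the test. It was 0.74, and passed, without siNSsiNS replicate 3, the one library of the control condition in which RPL11 was above 500 CPM under vehicle. RPL11 also passed without siBRMsiNS replicate 1 (0.58). RPL36A (−0.54) was the gene that DESeq2 called. The count was 3 without siBRMsiNS replicate 1 and 2 without siNSsiNS replicate 3. With dex 1 member was higher and 1 lower, RPL11 (0.64) and RPL36A (−0.75), where 7.06% of all genes were higher and 4.77% lower (11.8% in all), and DESeq2 called 2 higher and 1 lower. The count was 4 without siBRMsiNS replicate 1, and 0 without its replicate 3 or without siNSsiNS replicate 1 or 2.

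With siBRMsiHic5 under vehicle 3 members rose and 1 fell, far under the 24.4% of all genes that were higher and the 24.6% that were lower (48.9% in all), and the median was −0.08. RPL11 had 890, 773 and 742 CPM in siBRMsiHic5 libraries, against 346, 362 and 557 CPM in siNSsiNS libraries, a change of 0.93 (SE 0.17, adjusted p = 0.00011). RPS26 rose by 0.56 and RPL3 by 0.37, while RPL36A fell by 0.94. RPL3 did not pass with the length and GC curves (0.13), nor without siNSsiNS replicate 1 or 2 or siBRMsiHic5 replicate 1. With those curves the count itself became 2 higher and 28 lower, with a median of −0.35, where 25.2% of all genes were lower. Other genes with transcripts under 1500 bases had a median of 0.23 in this contrast before the curves and 0.01 after them. The curves were fitted over genes that are not members, so the fit itself brought that second value near 0. With dex 3 members were higher and 2 lower, where 22.4% of all genes were higher and 23.1% lower (45.5% in all). RPL5 was among the lower ones, at 735, 804 and 786 CPM in siBRMsiHic5 dex libraries and 1116, 1106 and 1179 CPM in siNSsiNS dex libraries, a change of −0.55 (SE 0.20). The length and GC curves made this 1 higher and 30 lower, and the count was 3 without siNSsiNS replicate 1 or 2.

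RPL11, RPL3 and RPL36A were the members with calls in the most siRNA conditions under vehicle, 4 of the 5 each. RPL11 and RPL3 rose in siHic5siNS, siCHD9siNS, siCHD9siHic5 and siBRMsiHic5. RPS26 rose in siCHD9siNS, siCHD9siHic5 and siBRMsiHic5, and was at 0.22 in siHic5siNS and 0.25 in siBRMsiNS, where it did not pass the test. RPL36A fell in siHic5siNS (−0.79), siCHD9siNS (−0.57), siCHD9siHic5 (−0.58) and siBRMsiHic5 (−0.94). These contrasts share the siNSsiNS vehicle libraries, and any deviation there enters all of them. In those libraries RPL36A had 13.56, 12.04 and 9.46 CPM, RPL11 345.7, 361.6 and 557.3 CPM, and RPL3 1261, 1317 and 1497 CPM. The calls of RPL3 in siBRMsiHic5 and of RPL36A in siCHD9siNS did not hold in every setting, as given above.

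The conditions labelled siCHD9siHic5 and siBRMsiHic5 were also set against siHic5siNS, the condition that shares the Hic-5 siRNA. In siCHD9siHic5 under vehicle the CHD9 transcript was higher than in siHic5siNS, at 143, 110 and 116 CPM against 78.0, 55.7 and 70.7 CPM. In this contrast 29 members were higher and 5 lower, with a median of 0.27. Of all genes 21.9% were higher and 25.7% lower (47.7% in all). RPL5 (1.69), RPL23A (0.82), RPL27 (0.81), RPS13 (0.81) and RPS26 (0.69) rose, and RPL34 (−1.85), RPL32 (−0.94), RPL35A (−0.91), RPL23 (−0.59) and RPL10A (−0.49) fell. This contrast and that of siCHD9siNS with siNSsiNS use no common library. Across the 74 genes the changes in the 2 contrasts had Pearson's r = 0.72 and Spearman's rho = 0.73, and 66 of 74 had the same sign. Over all tested genes r was 0.53, and genes are not independent replicates. The counterpart, siBRMsiHic5 over siHic5siNS beside siBRMsiNS over siNSsiNS, had r = 0.33 over the members and 0.47 over all genes, and 14 of 74 had the same sign. The change was positive for 63 members in siCHD9siHic5 over siHic5siNS and 69 in siCHD9siNS over siNSsiNS. In the counterpart it was positive for 65 and 7. The same-sign counts follow mostly from these totals, so they do not measure agreement gene by gene.

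In siBRMsiHic5 14 members were higher and 0 lower than in siHic5siNS, with 23 at an unadjusted p under 0.05 and 14 higher and 0 lower by DESeq2, where 25.2% of all genes were higher and 24.2% lower (49.4% in all). RPL5 had 742, 858 and 776 CPM in siBRMsiHic5 libraries, against 292, 162 and 339 CPM in siHic5siNS libraries, a change of 1.58 (SE 0.21). RPL4 rose by 0.93 and RPL27 by 0.89. The members' median turned with the length and GC curves, to −0.09 from a value of 0.26 without them, and the calls became 3 higher and 11 lower, where 47.1% of all genes passed. The count was 5 without siHic5siNS replicate 1 or 3 or siBRMsiHic5 replicate 1.

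Dex changed no member past the test in any siRNA condition without pairing: 0 of 74 passed by edgeR and by DESeq2 in each of the 6, with 4 members at an unadjusted p under 0.05 by edgeR in siCHD9siNS and 0 in the others. The share of all genes that passed was 0.876% in siHic5siNS, 0.949% in siCHD9siNS, 0.382% in siBRMsiNS, 0.455% in siCHD9siHic5, 0.501% in siBRMsiHic5 and 0.343% in siNSsiNS. The medians over the 74 members were 0.12, −0.26, 0.17, −0.04, −0.03 and 0.03 in that order of conditions. Dex and vehicle libraries of one replicate deviated together from their group means, with correlations of 0.5 to 0.947 over the 18 pairs, so the fit with the replicate as a block is given beside this one.

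With the replicate block, dex lowered almost the whole set in siCHD9siNS: 71 of 74 fell and 0 rose, with 73 at an unadjusted p under 0.05. Of all tested genes 24.1% passed in that fit, 13% being lower. RPL17, RPL36A and RPS12 were the 3 that did not pass. The fall was small and even, with a median of −0.26 and 10th and 90th percentiles of −0.30 and −0.21, against a median of −0.03 over all genes. RPLP0 had 2678, 2959 and 2898 CPM in siCHD9siNS dex libraries, against 3381, 3555 and 3311 CPM in siCHD9siNS vehicle libraries, a change of −0.26 (SE 0.05, adjusted p = 0.0007 with the block). RPS16 (−0.32), RPS2 (−0.28) and RPSA (−0.26) were among those with the next smallest p-values. RPL4 (−0.18) and RPL5 (−0.21) also fell. The vehicle libraries used here are also those in which members were higher than in siNSsiNS. Any deviation in them enters both results and the difference of dex responses below, so these are not independent. The members' mean share of counts was 7.92% in siCHD9siNS vehicle and 6.84% in siCHD9siNS dex libraries. In siNSsiNS it was 6.48% with vehicle and 6.76% with dex.

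Every pair showed the fall. The members' median was −0.36 in pair 1, −0.23 in pair 2 and −0.18 in pair 3, and 73 of 74 were lower with dex in all 3. Other genes under 1500 bases had medians of −0.25, −0.11 and −0.11 in these pairs. The share of all genes lower in all 3 pairs was not counted. Because the members moved together between libraries, they are not 74 separate observations. The members' share of counts was 6.51% with dex and 8.04% with vehicle in pair 1, 6.97% and 7.98% in pair 2, and 7.04% and 7.73% in pair 3. Without pair 1, 28 members fell.

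In the other conditions the block called 2 members, RPS28 (0.24) and RPL13 (0.20), both higher with dex in siBRMsiNS, where 2.38% of all genes were higher (3.91% passed in all). Without replicate 3 of siBRMsiNS the count was 7, without replicate 1 or 2 or with TMM factors it was 0, and the pairs' medians were 0.31, 0.10 and 0.01. In siHic5siNS 26 members had an unadjusted p under 0.05 and 0 passed, where 8.93% of all genes did. The pairs' medians there were 0.18, 0.16 and −0.01, and 2 members passed without replicate 3. In siCHD9siHic5, siBRMsiHic5 and siNSsiNS 0 members passed with the block, with 0, 0 and 1 at an unadjusted p under 0.05, where 4.74, 5.95 and 2.5% of all genes passed.

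**Figure D4:**
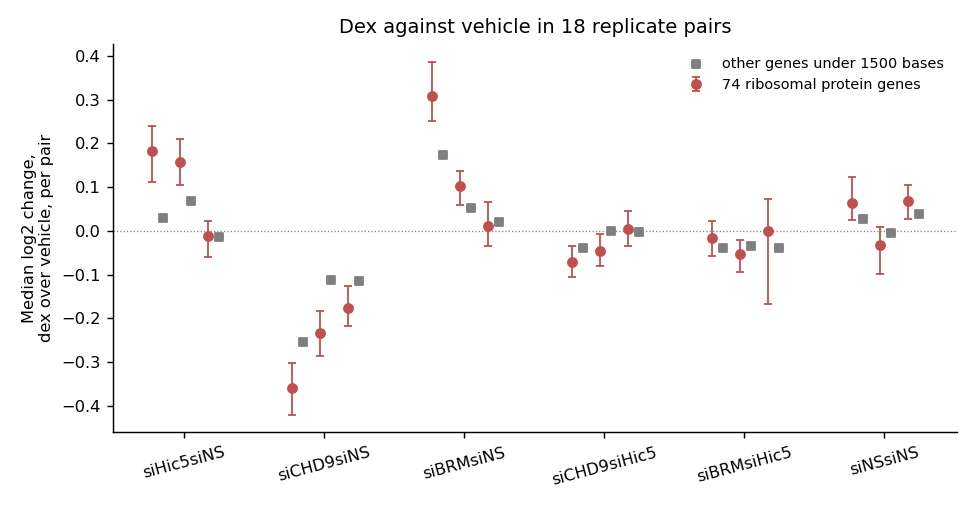
Median log2 change of the 74 ribosomal protein genes, dex over vehicle, in each of the 18 replicate pairs by siRNA condition; circles are medians with bars from the 10th to the 90th percentile of genes, and squares the median of other genes with transcripts under 1500 bases. All 3 siCHD9siNS pairs lie below 0, at −0.36, −0.23 and −0.18, with the squares also below 0.

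The dex response in siCHD9siNS was also set against that in siNSsiNS. Without the block 0 members differed, with 0 at an unadjusted p under 0.05 and 0 by DESeq2, where 0.00659% of all genes passed. With it, 45 were more negative and 0 more positive, with a median difference of −0.29, where 1.85% of all genes were more negative. The difference was −0.38 for RPS16 (SE 0.08), −0.35 for RPL23 (SE 0.07) and −0.30 for RPLP0 (SE 0.06). With the block kept, the number of members was 28 with TMM factors and 1 with the length and GC curves. With the block and 1 pair left out, it was 48 without siCHD9siNS replicate 3, 41 without siNSsiNS replicate 2 and 0 without any one of the other 4 pairs. For the other 4 conditions 0 members differed from siNSsiNS with or without the block, with at most 4 at an unadjusted p under 0.05 and 0 by DESeq2, where 0% of all genes passed without the block.

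Ribosomal protein mRNAs are short, and the change with length was measured beside these results. The transcripts assigned to the members had a median of 823 bases, against 2919 over tested genes, and 59 of 74 were under 1500 bases. Some members were assigned long transcripts (RPL37 with 7686 bases, RPL27A with 4916 and RPL28 with 4796), so that their lengths are uncertain. With dex in siCHD9siNS, other genes under 1500 bases had a median of −0.17 in the fit without pairing, so short genes of other kinds were lower too. By class, the other genes were at −0.08 below 500 bases, −0.21 from 500 to below 1000, −0.09 from 1500 to below 3000 and 0.16 from 6000 on. The members were at −0.26, −0.26, −0.26 and −0.24 in the same classes, the last with 1 gene.

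After the length and GC curves, fitted with the replicate block, 42 members fell with dex in siCHD9siNS and 0 rose, where 5.91% of all genes fell. Their median was −0.13, against −0.03 for other genes under 1500 bases. The curves were fitted over genes that are not members, so the fit itself brought those other genes near 0. Members with short transcripts had a median of −0.11 and the 15 with longer ones −0.22. Without the curves these medians were −0.26 and −0.25 in the block fit. The gap was thus present only with the curves, which use the assigned lengths, and some of those are uncertain. The slope of log2 CPM on log2 length was 0.026, −0.019 and −0.028 in siCHD9siNS dex libraries of pairs 1, 2 and 3, against −0.148, −0.104 and −0.103 in the matching vehicle libraries, and thus moved in all 3 pairs with the members' fall. Beyond these values, the part of length in the fall was not tested.

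**Figure D5:**
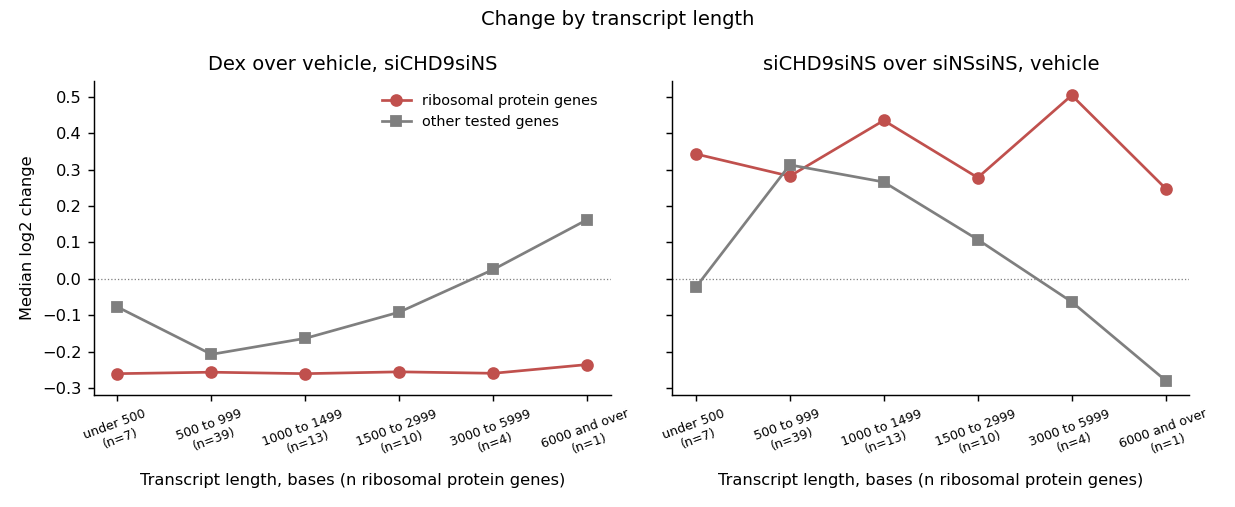
Median log2 change by assigned transcript length in bases, for ribosomal protein genes and other tested genes; left, dex over vehicle in siCHD9siNS; right, siCHD9siNS over siNSsiNS under vehicle. In the left panel other genes are at −0.08 in the class under 500 bases, −0.21 in that from 500 bases and 0.16 in that from 6000 bases, while ribosomal protein genes stay between −0.26 and −0.24. In the right panel ribosomal protein genes are at 0.28 and other genes at 0.31 in the class from 500 bases, which holds 39 ribosomal protein genes.

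Values by length were also taken in the vehicle contrasts. Other genes under 1500 bases were at 0.26 in siCHD9siNS, −0.08 in siHic5siNS and 0.01 in siCHD9siHic5 relative to siNSsiNS, beside members' medians of 0.35, −0.34 and −0.05. In siCHD9siNS the 39 members from 500 to below 1000 bases were at 0.28, not above the other genes of that class (0.31). Below 500 bases members were at 0.34 and other genes at −0.02, and from 1000 to below 1500 bases at 0.435 and 0.27. With the curves the members' medians were 0.17, −0.24 and 0.06. In siHic5siNS 3 members were then higher and 19 lower. RPL5 in siHic5siNS and RPL34, RPL32 and RPL35A in siCHD9siHic5 passed the test in the same direction with and without the curves.

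Other genes of ribosome production gave a setting for these counts. With dex in siCHD9siNS, in the fit with the block, 34 of 71 mitochondrial ribosomal protein genes fell and 0 rose, as did 22 of 31 proteasome subunit genes and 14 of 26 translation factors and other TOP genes, with medians of −0.18, −0.19 and −0.16. Of all genes 13% fell in this fit, and of other genes under 1500 bases 699 of 2373 did. Of 38 ribosome biogenesis genes 10 fell and 2 rose, and of 13 RNA polymerase I genes 2 fell and 1 rose. The siCHD9siNS vehicle libraries enter both these counts and those of siCHD9siNS under vehicle below, so the counts are not independent.

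With siHic5siNS under vehicle, where 27.2% of all genes fell and 26% rose, 22 of 38 ribosome biogenesis genes fell and 1 rose, with a median of −0.42. DDX21, a nucleolar helicase, fell by 1.09, BRIX1 by 1.04 and NOP58, a core box C/D snoRNP protein, by 0.89. Of 71 mitochondrial ribosomal protein genes 36 fell and 5 rose, led by MRPL40 (−1.07), MRPS5 (−0.65) and MRPL33 (−0.84). RNA polymerase I genes, which make the ribosomal RNA precursor, fell in 6 of 13 cases and rose in 0, and proteasome genes fell in 13 of 31 and rose in 1. Of 20 regulators of ribosomal protein synthesis 5 rose and 6 fell, and MAX, the partner of MYC, rose by 0.58.

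With siCHD9siNS under vehicle, where 15.8% of all genes and 697 of 2373 other genes under 1500 bases rose and 16.5% of all genes fell, 42 of 71 mitochondrial ribosomal protein genes rose and 3 fell, led by MRPL15 (0.77), MRPL14 (0.76) and MRPS6 (1.31). Ribosome biogenesis genes rose in 18 of 38 cases and fell in 1, proteasome genes rose in 13 of 31 and fell in 0, and translation factors and other TOP genes rose in 13 of 26 and fell in 3. The non-coding TOP transcripts SNHG8 (1.27) and SNHG6 (0.91) were among those that rose. EIF4EBP1, a repressor of translation that mTOR controls, rose by 0.97, while EIF4EBP2 fell by 1.12.

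In siBRMsiHic5, where 3 members rose and 1 fell, 28 of 71 mitochondrial ribosomal protein genes rose and 3 fell, and 23 of 31 proteasome genes rose and 1 fell. Of all genes 24.4% rose and 24.6% fell there, and 822 of 2373 other genes under 1500 bases rose. In siCHD9siHic5 the cytosolic and mitochondrial sets were both divided, the mitochondrial one with 8 higher and 15 lower of 71, where 23.7% of all genes were higher and 28.9% lower. NACA, a ribosome-bound chaperone subunit, fell by 1.99 there. Of 7 paralogs outside the symbol rule, RPL36AL rose in siCHD9siNS (0.70), siBRMsiNS (0.43), siCHD9siHic5 (0.60) and siBRMsiHic5 (0.86), and RPL26L1 rose in siBRMsiNS (0.61), siCHD9siHic5 (0.94) and siBRMsiHic5 (1.24).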

How the data were processed

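Whole-number counts per gene were deposited by the authors for 36 libraries. Per the submitters' processing notes, TopHat2 2.1.1, edgeR and the build GRCh38 were used. No source used here states the counting rule or strandedness. The file's title names a normalized abundance, but its values are whole counts with unequal library totals and were tested as such.

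Genes over 1 CPM in at least 3 libraries were tested with edgeR 4.0.16 (R 4.3.3) by the quasi-likelihood test on 12 group means with upper-quartile factors. P-values were Benjamini-Hochberg adjusted over 15179 genes and called under 0.05. The fitting code was tested separately on simulated data, which enter no value given here. With 3 against 3 libraries an exact permutation test of one gene could not go below 0.1. The replicate block used 18 pair terms for dex contrasts and 3 replicate levels for siRNA contrasts. Dex and vehicle libraries of a number correlated at 0.5 to 0.947 (18 of 18 pairs), and these were taken as paired. Across siRNA conditions the correlations ran from −0.284 to 0.796, and exceeded 0.1 in all pairs of 5 of 12 contrasts, all with CHD9 siRNA, in which the block moved no count by over 1.5 times. No 2 libraries of a group agreed within sampling noise (over 36 pairs, chi-square divided by its degrees of freedom was at least 9.59).

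Alternatives were TMM factors, no filter, DESeq2 1.42.0, only the groups compared, left-out libraries, and curves for log2 transcript length and GC content (splines of 5 degrees of freedom, GENCODE v29 lengths for 98.7% of genes), fitted per library over genes that are not members. Blocks with TMM factors or left-out pairs were added after the data were seen. Genes named with values were those with assigned roles, up to 5 called members each way per contrast by p, the extremes of level, the 3 farthest from the median per vehicle contrast, and up to 3 genes per other list. Genes of the other lists were picked as called genes with the smallest p-values, so they do not stand for the rest of their list. RPS2, RPS16, RPS28 and RPL13 in the blocked fit and repeated mentions of a gene in other contrasts were chosen after values were seen. Some results that fall under these rules are not reported here. Members and lists were chosen with earlier results of these data known.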

Additional observations from a re-analysis of the deposited data

Results flagged for a closer look

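The dex response of 45 ribosomal protein genes differed between siCHD9siNS and siNSsiNS, by a test of the difference of the 2 responses with the replicate block (edgeR, adjusted p under 0.05), all more negative in siCHD9siNS. The median difference over the 74 genes was −0.29 (log2). The siCHD9siNS vehicle libraries that enter it are also those in which members were higher than in siNSsiNS. Of all genes 1.85% were more negative in that fit. The number was 0 without the block, with or without the length and GC curves, and 1 with both the block and the curves. The libraries' slope on transcript length moved with the dex response in siCHD9siNS. The number was 28 with the block and TMM factors. With the block and 1 pair left out it was 0 to 48, and it was 0 for most of the pairs.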

How the results depend on the processing

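Depth limits RPL36A, RPL17 and RPS10 most, at 7.79, 12.2 and 22.8 CPM on average. The number of members called moved by more than 1.5 times in the settings that follow. The replicate block gave 71 for dex in siCHD9siNS (71 also with TMM factors), 2 for dex in siBRMsiNS, 45 for the difference of dex responses of siCHD9siNS and siNSsiNS (28 with TMM factors), 2 for siBRMsiNS against siNSsiNS under vehicle and 8 for siBRMsiHic5 against siNSsiNS with dex. It moved no other count by as much. The labels do not say that a number marks the same day in every siRNA condition, and in the siRNA contrasts without CHD9 siRNA the correlations of same-numbered libraries were not all over 0.1, so pairing is not established there. With the block and the length and GC curves the counts were 42 for dex in siCHD9siNS, 1 for dex in siHic5siNS, 1 for that difference, and, against siNSsiNS, 11 for siBRMsiNS and 48 for siBRMsiHic5 under vehicle, and 10 for siCHD9siNS, 8 for siBRMsiNS and 49 for siBRMsiHic5 with dex. With the curves alone they were 12 for siCHD9siNS, 1 for siBRMsiNS and 30 for siBRMsiHic5 under vehicle, and 1 for siBRMsiNS and 31 for siBRMsiHic5 with dex. DESeq2 called 1 for siBRMsiNS under vehicle. Fits of only the groups compared gave, under vehicle, 48 for siHic5siNS, 55 for siCHD9siNS, 42 for siCHD9siHic5 and 8 for siBRMsiHic5, and with dex 18 for siCHD9siNS, 0 for siBRMsiNS, 38 for siCHD9siHic5 and 16 for siBRMsiHic5. Except where stated, the cause was not tested. Leaving out 1 library gave, under vehicle against siNSsiNS, 16 to 31 for siHic5siNS, 14 to 21 for siCHD9siNS, 0 to 3 for siBRMsiNS, 18 to 21 for siCHD9siHic5 and 3 to 4 for siBRMsiHic5. With dex the ranges were 10 to 22, 2 to 4, 0 to 4, 17 to 21 and 3 to 5. Against siHic5siNS they were 30 to 34 for siCHD9siHic5 and 5 to 14 for siBRMsiHic5. For each dex response without the block they were 0 to 0. With the block and 1 pair left out they were 28 (without pair 1), 69 (pair 2) and 70 (pair 3) for dex in siCHD9siNS, 0 to 2 in siHic5siNS, 0 to 7 in siBRMsiNS and 0 to 48 for the difference of siCHD9siNS (48 without siCHD9siNS replicate 3, 41 without siNSsiNS replicate 2, otherwise 0). Of 611 settings over 47 results for single members, 591 kept direction and call, 10 lost the call, 10 gained it and 0 turned direction. No filter on low counts left each count within 1.5 times.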
